A study of Mus musculus with 4 samples.

Results

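The genes described here are 6 receptors of the SLAM (signalling lymphocytic activation molecule) family, Slamf1, Slamf6, Slamf7, Cd84, Ly9 and Cd48, and Sh2d1a, which encodes the adaptor SAP. They were taken by gene name, without use of their values, and make up 7 of the 54532 genes in the deposited table. Naive CD4+ T cells from the spleens of wild-type mice spent 3 days in a culture that polarizes them towards T follicular helper (Tfh) cells, and their total RNA was sequenced. The control group, with no treatment, and the group cultured with dimethyl fumarate (DMF), a fumaric acid ester known to activate the transcription factor Nrf2, hold 2 libraries each. All cells shared the Tfh culture conditions, and uncultured cells were not analysed here. The labels used here give no DMF concentration and no age of the mice, and do not say whether replicates came from separate animals or cultures. The p-values therefore measure the spread between these libraries, which may be technical. The series title ties DMF to Tfh differentiation, and the comparison bears on how receptor and adaptor transcripts differ when such a culture holds DMF.

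SLAM receptors sit on the surface of T cells, B cells and other blood cells, and most of them bind a copy of themselves on the neighbouring cell. Most receptors have tails with tyrosine motifs that, once phosphorylated, are bound by SAP, a small protein made of little more than an SH2 domain. SAP brings in the kinase Fyn and keeps inhibitory phosphatases away, and without it T cells hold on poorly to B cells, so that germinal centres fail. Loss of SAP in humans causes X-linked lymphoproliferative disease. CD48 differs from the other receptors in having no tail. It is held in the membrane by a lipid anchor, and serves as a ligand for CD2 and CD244.

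In the DMF libraries, transcripts of the adaptor Sh2d1a and of the ligand Cd48 were lower than in both controls, by a ratio of 3.36 and 1.9 in mean FPKM (fragments per kilobase of gene length, set against the size of the library). Slamf1 was lower by a ratio of 1.2. Slamf7, Cd84 and Slamf6 were higher than in both controls, by ratios of 1.36, 1.15 and 1.14, and Ly9 overlapped between the groups. None of the 7 genes passed limma's test at an adjusted p under 0.05, and 0% of the 12166 genes tested did. At an unadjusted p under 0.05, limma called Sh2d1a, against 9.45% of all tested genes (6.31% lower in DMF and 3.14% higher). Sh2d1a was among the tested genes, those with a mean of at least 1 FPKM, only through its control values. With no such filter its limma unadjusted p was 0.0546. Under limma's voom on reads per gene, 0 genes passed as well, with 2 of the 7 genes and 1177 of all genes at an unadjusted p under 0.05. Both DMF libraries lay above both controls for 3 of the 7 genes, against 26.4% of all tested genes, and below both for 3, against 26.8%. The groups thus did not overlap for 6 of the 7 genes, and for 53.2% of all tested genes. The median difference was 0.09 over the 7 genes and -0.01 over all tested genes, on the scale of log2(FPKM + 1). With the trend of each library with gene length removed, 0 of the 7 and 0.0247% of all tested genes passed limma at an adjusted p under 0.05, with 3 of the 7 and 13.8% of all tested genes at an unadjusted p under 0.05. An exact permutation test of 2 libraries against 2 cannot give a two-sided p below 0.333.

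The precision of these values is set by the controls, which lay further apart than the DMF libraries. The SD over tested genes of the log2 difference between replicates was 0.745 for the controls and 0.316 for DMF. Control replicate 2 stood apart: genes for ribosomal proteins took 14.1% of its reads and 6.42% to 7.01% in the other libraries. The authors' library sizes were 0.876 times the read total in control replicate 2 and 1.03 to 1.07 times in the others. The 4 libraries held 15900118 to 17516953 reads. The differences of the 7 genes are therefore also given without control replicate 2, and levels and ratios library by library.

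**Figure D1:**
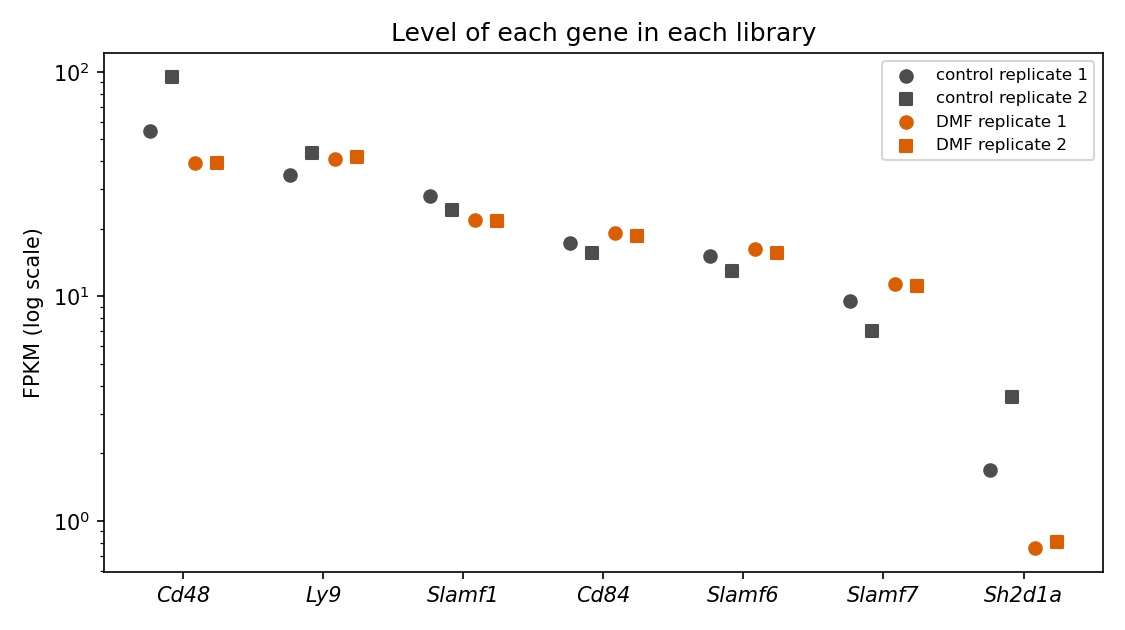
FPKM (log axis) of the 7 genes in each library, with control in grey and DMF in orange, circles for replicate 1 and squares for replicate 2, and no averaging. The orange symbols of each gene nearly coincide, while the grey ones of Cd48 and Sh2d1a lie apart and above them.

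The adaptor comes first, since several of the receptors share it. Sh2d1a (ENSMUSG00000005696, protein coding, plus strand, GRCm38 chromosome X, 42502453 to 42529330) was at 1.69 and 3.56 FPKM in control replicates 1 and 2 and at 0.754 and 0.807 FPKM in DMF replicates 1 and 2. Both DMF libraries lay below both controls, and the controls themselves differed by more than the lower of them differed from DMF. These levels rest on 165, 273, 76 and 83 reads in the same order, the fewest of the 7 genes. The group means were 2.63 ± 1.32 FPKM for control and 0.781 ± 0.0376 FPKM for DMF (SD, n = 2). On the scale of log2(FPKM + 1), DMF differed from control by -0.98 ± 0.33 (SE, limma unadjusted p = 0.0363, adjusted p = 0.503), with a 95% interval of -1.86 to -0.10. Of all tested genes, 4.41% had a difference as low or lower. Adding 1 to FPKM shrinks the difference of a gene at this level, which was -1.54 when 0.1 was added and -1.61 by voom on reads. Sh2d1a passed the filter of a mean of at least 1 FPKM only through its control values. Its difference was -0.60 without control replicate 2 (limma adjusted p = 0.151) and -1.36 without control replicate 1 (adjusted p = 0.00823).

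CD8 T cells and NK cells also express Sh2d1a, and markers of these cells were lower as well. Of 10 such markers, whatever their level, each DMF library was below each control for 7, above for 0, and the groups overlapped for 3. Of all 26241 genes with a read, 19.7% lay below and 20.6% above. The sum of the 10 was at 35.6 and 73.7 FPKM in the controls and at 8.67 and 8.61 FPKM in the DMF libraries. Most of it was Nkg7, at 21.1 and 50.4 FPKM in the controls and at 5.2 and 5.45 FPKM in the DMF libraries. The NK markers Ncr1 and Klrb1c had 0 reads in every library, and Gzma reached 0.143 FPKM in control replicate 2 alone. The part of these cells in the level of Sh2d1a, or in that of Slamf7, which lay above both controls, was not tested. In RNA from a culture as a whole, fewer cells of a type and less RNA per cell cannot be told apart.

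The other SLAM adaptors were barely detected. Sh2d1b1, which encodes EAT-2, the adaptor used by NK cells, had 4 and 1 reads in the controls and 7 and 8 in the DMF libraries. Sh2d1b2, a close relative, had 0 reads in each library, which allows up to 3 reads for counting error. Sh2d1a was thus the SLAM adaptor with the highest FPKM in each of the 4 libraries.

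Cd48 (ENSMUSG00000015355, protein coding, plus strand, GRCm38 chromosome 1, 171682009 to 171705258) was at 54.2 and 95.2 FPKM in the controls and at 39.2 and 39.4 FPKM in the DMF libraries. The DMF libraries agreed closely and lay below both controls. The difference was -0.86 ± 0.33 on the log2(FPKM + 1) scale (SE, limma unadjusted p = 0.0527, adjusted p = 0.532), with a 95% interval of -1.73 to 0.02. Without control replicate 2 it was -0.46, and without control replicate 1 it was -1.26. At 1189 bp, Cd48 has the shortest gene model of the 7, the others being 3307 to 10832 bp. With the gene length trend removed, its difference was -0.49 ± 0.12 (SE, limma adjusted p = 0.26).

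CD2, the partner that binds CD48 in mice and helps T cells adhere, showed the larger difference of the pair. Cd2 was at 135 and 246 FPKM in the controls and at 57.9 and 59.4 FPKM in the DMF libraries. The DMF libraries were again nearly equal and below both controls, by -1.62 ± 0.36 on the log2(FPKM + 1) scale (SE, limma unadjusted p = 0.00819, adjusted p = 0.331). It was -1.19 without control replicate 2 (limma adjusted p = 0.0173) and -2.05 without control replicate 1. CD244, the other receptor for CD48, had few transcripts, with 5 and 20 reads of Cd244a in the controls and 10 and 6 in the DMF libraries. Ligand and CD2 transcripts were thus both abundant in these cultures, and those of CD244 were not.

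The self-binding receptors lay within a narrower range of differences. Slamf1 (ENSMUSG00000015316, GRCm38 chromosome 1, 171767127 to 171801184), the founding member of the family, was at 28.1 and 24.2 FPKM in the controls and at 21.8 and 21.7 FPKM in the DMF libraries. It lay below both controls, by -0.25 ± 0.18 (SE, limma adjusted p = 0.573), with a 95% interval of -0.74 to 0.23. Without control replicate 2 the difference was -0.36, and it was the lower control that was then missing. Without control replicate 1 the difference was -0.15.

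Slamf6, also known as Ly108 and a main SAP partner in T cells that meet B cells, was at 15.1 and 12.9 FPKM in the controls and at 16.3 and 15.7 FPKM in the DMF libraries. The groups did not overlap, but the gap between them was smaller than the gap between the controls. The gene (ENSMUSG00000015314, GRCm38 chromosome 1, 171917515 to 171953170) differed by 0.18 ± 0.18 (SE, limma adjusted p = 0.629), with a 95% interval of -0.29 to 0.66. With the gene length trend removed the sign turned, to -0.12. Without control replicate 2 the difference was 0.08, and without control replicate 1 it was 0.29.

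Cd84 (ENSMUSG00000038147, GRCm38 chromosome 1, 171839697 to 171890718), which with Slamf6 supports lasting contact between T and B cells, was at 17.3 and 15.6 FPKM in the controls and at 19.2 and 18.5 FPKM in the DMF libraries. Its values followed those of Slamf6, with both DMF libraries slightly above both controls. The difference was 0.19 ± 0.17 (SE, limma adjusted p = 0.613), with a 95% interval of -0.27 to 0.65. It was 0.06 with the gene length trend removed, 0.11 without control replicate 2 and 0.26 without control replicate 1.

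Slamf7 (ENSMUSG00000038179, GRCm38 chromosome 1, 171632403 to 171653035), a receptor best known from NK and plasma cells, was at 9.52 and 7 FPKM in the controls and at 11.4 and 11.2 FPKM in the DMF libraries. It had the lowest level of the 6 receptors in each library and the largest positive difference. That difference was 0.42 ± 0.21 (SE, limma adjusted p = 0.561), with a 95% interval of -0.14 to 0.98, and 0.41 with the gene length trend removed. It was 0.22 without control replicate 2 (limma adjusted p = 0.146) and 0.62 without control replicate 1 (adjusted p = 0.00659).

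Ly9 (ENSMUSG00000004707, GRCm38 chromosome 1, 171588624 to 171607410), which is carried by most T and B cells, was at 34.5 and 43.6 FPKM in the controls and at 41 and 41.8 FPKM in the DMF libraries. The DMF values fell between those of the controls. The difference was 0.09 ± 0.21 (SE, limma adjusted p = 0.83), with a 95% interval of -0.47 to 0.65 that leaves room for a difference in either direction. Without control replicate 2 it was 0.25, and without control replicate 1 it turned to -0.07.

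Leaving out control replicate 1 brought 5 of the 7 genes past an adjusted p of 0.05 in limma, but also 61% of all tested genes (27.6% higher and 33.4% lower). The 5 were Slamf6, Slamf7 and Cd84, higher, and Cd48 and Sh2d1a, lower. Leaving out control replicate 2 brought 2 of the 7 past it, Slamf1 and Cd48, both lower, against 8.28% of all tested genes (2.77% higher and 5.51% lower). In these fits the lone control is assumed to vary like the DMF libraries. The filter was set over all 4 libraries, and Sh2d1a passed it only through its control values.

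**Figure D2:**
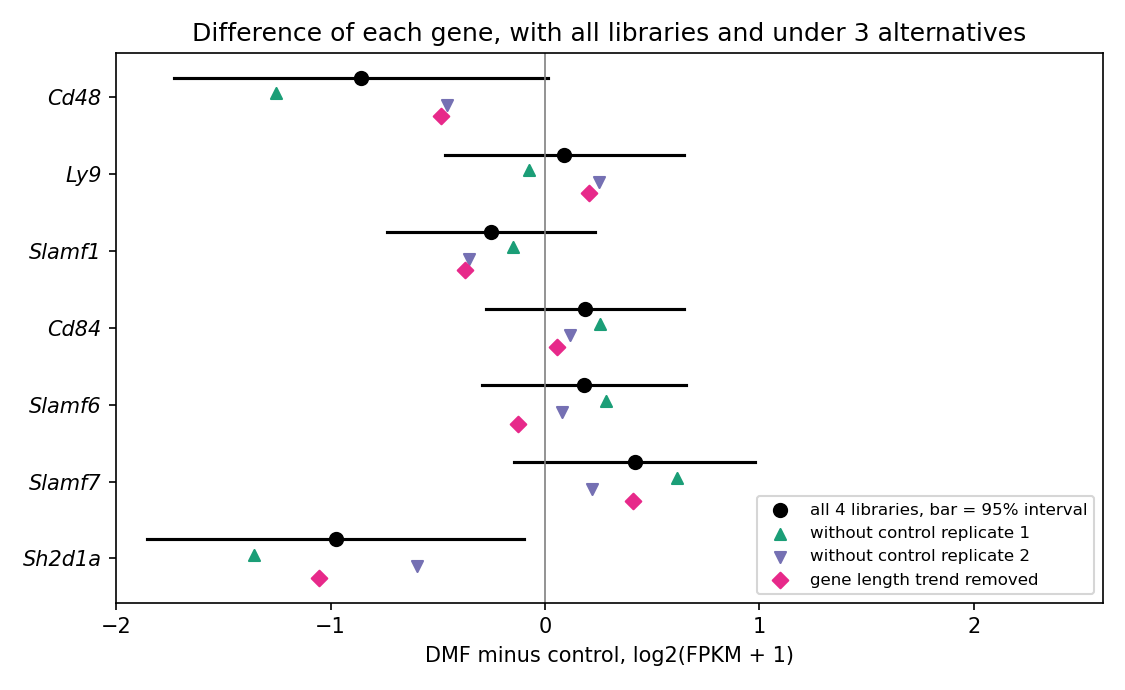
DMF minus control on the log2(FPKM + 1) scale for the 7 genes. Black points with bars give all 4 libraries with the 95% interval, and coloured symbols give the value without control replicate 1, without control replicate 2 and with the gene length trend removed. The bars of 6 genes cross 0, that of Sh2d1a ends at -0.10, and the symbols of Ly9 and Slamf6 fall on both sides of 0.

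Markers of B cells, which also carry SLAM receptors, stood the other way from those of CD8 T and NK cells. Of 10 B cell markers, whatever their level, the DMF libraries were above the controls for 9 and below for 1, Ighm, beside 20.6% and 19.7% of all genes with a read. Their sum was at 81.2 and 122 FPKM in the controls and at 90.8 and 90.5 FPKM in the DMF libraries, most of it Ighm. Among the 4 plasma cell markers, which matter for Slamf7, Sdc1 and Irf4 lay above both controls, beside 20.6% of all genes with a read. Jchain lay below both, beside 19.7%, at 0.672 and 1.08 FPKM in the controls and 0.586 and 0.192 FPKM in the DMF libraries. Tnfrsf17 had 0 reads in every library. Irf4, which activated T cells express too, made up most of the summed level of that list, 126 and 89.1 FPKM in the controls and 155 and 152 FPKM in the DMF libraries. The part of B and plasma cells in the levels of the 6 receptors was not tested. Of these receptors, Cd84, Slamf6 and Slamf7 lay above both controls, Cd48 and Slamf1 lay below both, and Ly9 overlapped. Markers of T cells were abundant, with sums of 1093 and 1411 FPKM in the controls and 1061 and 1069 FPKM in the DMF libraries, and 4 of the 6 lay below both controls, beside 26.8% of all tested genes. Macrophage and monocyte markers summed to 4.24 and 6.98 FPKM in the controls and to 2.5 and 1.2 FPKM in the DMF libraries. Whatever their level, 4 of the 6 lay below the controls and 0 above, beside 19.7% and 20.6% of all genes with a read. Counted likewise, 2 of 5 dendritic cell markers lay below and 0 above. For the 4 platelet and red cell markers, 1 lay below and 3 above. None of the 5 dendritic cell or the 4 platelet and red cell markers reached the filter, with sums of 0.513 to 0.785 and of 1.25 to 3.64 FPKM.

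Ranked by FPKM, which corrects for gene length, the order in both controls was Cd48, Ly9, Slamf1, Cd84, Slamf6, Slamf7 and Sh2d1a. In both DMF libraries Ly9 came before Cd48, and the rest of the order was the same. The levels of Cd48 and Ly9 were close in the DMF libraries, with Ly9 ahead by a factor of 1.05 and 1.06, and Cd84 and Slamf6 were neighbours throughout. Over the 4 libraries the range of Cd84 overlapped that of Slamf6, and the range of Cd48 that of Ly9, but within each library Cd84 came before Slamf6, and the order of Cd48 and Ly9 was the same in both libraries of a group. The ranges of all other neighbours in the order were separate. The receptors had 446 to 3222 reads each in a library.

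Ratios between genes of 1 library do not depend on how libraries are scaled, and they show how the receptor mixture differed in FPKM. They still hold each library's trend with gene length. Slamf1 stood to Slamf6 at 1.87 and 1.88 in the controls and at 1.34 and 1.38 in the DMF libraries. The controls agreed in this ratio although control replicate 2 stood apart in level. Slamf1 to Cd84 gave 1.62 and 1.55 in the controls and 1.13 and 1.17 in the DMF libraries. Slamf6 to Cd84 stayed between 0.828 and 0.868 in all 4 libraries and overlapped between the groups. In FPKM, Slamf1 was thus lower relative to these 2 receptors in the DMF libraries, while their ratio to each other was similar. With the gene length trend removed, the log2 differences were -0.37 for Slamf1, -0.12 for Slamf6 and 0.06 for Cd84, against -0.25, 0.18 and 0.19.

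Ratios with Cd48 and Sh2d1a lay further apart between the groups and also between the controls. Ly9 to Cd48 was 0.637 and 0.458 in the controls and 1.05 and 1.06 in the DMF libraries. With the gene length trend removed, the log2 differences were 0.20 for Ly9 and -0.49 for Cd48, against 0.09 and -0.86. Slamf6 to Sh2d1a was 8.9 and 3.63 in the controls and 21.5 and 19.4 in the DMF libraries. The transcripts of SAP were thus fewer per transcript of this partner receptor in both DMF libraries than in either control. Over all 21 pairs of the 7 genes, the ratio did not overlap between the groups in 17, and over the 15 pairs of receptors in 11. The share among all pairs of tested genes above 0 FPKM in each library was 52.9%. Pairs share genes, so these counts are no independent results, and no p is given for them.

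As a share of the summed FPKM of the 6 receptors, Cd48 took 34.1% and 48% in the controls and 26.3% and 26.6% in the DMF libraries. Ly9 took 21.8% and 22% in the controls and 27.5% and 28.2% in the DMF libraries. The 4 remaining receptors, Slamf1, Cd84, Slamf6 and Slamf7, took 12.2% to 17.7%, 7.86% to 12.9%, 6.5% to 10.9% and 3.52% to 7.63% over the libraries. The sum itself was 159 and 199 FPKM in the controls and 149 and 148 FPKM in the DMF libraries. The gene length trend was not removed from these shares.

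**Figure D3:**
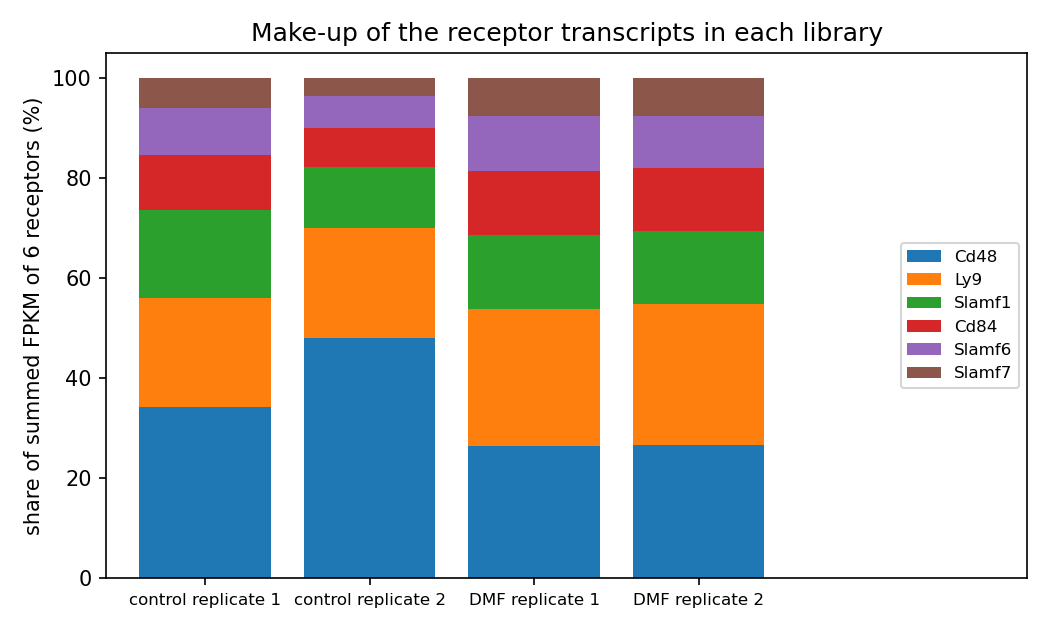
Share (%) of the summed FPKM of the 6 receptors taken by each receptor in each of the 4 libraries, as stacked bars that start at 0. The segment of Cd48 is 34.1% and 48% in the controls and 26.3% and 26.6% in the DMF libraries, and that of Ly9 is 21.8% to 22% and 27.5% to 28.2%.

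The 6 receptor genes lie side by side on chromosome 1, in a span of 364.5 kb from Ly9 to Slamf6 (GRCm38, 171588624 to 171953170), while Sh2d1a lies on the X chromosome. Along the span the order is Ly9, Slamf7, Cd48, Slamf1, Cd84 and Slamf6, the first pair on the minus strand and the others on the plus strand. Neighbours could differ in sign, with Slamf7 at 0.42 and Cd48, the next receptor gene, at -0.86. The span overlaps 19 genes of the table, of which 9 were tested, the 6 receptors among them. The 3 others overlapped between the groups, and among them only Gm10521 is annotated as protein coding, at 4.73 and 0.502 FPKM in the controls and 4.33 and 4.85 FPKM in the DMF libraries. In the flanks of 500 kb on either side, 27 genes were tested, with 5 above and 8 below both controls, beside 26.4% and 26.8% of all tested genes, and a median difference of -0.12. The median over all tested genes was -0.01.

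Reads of overlapping genes can be counted to either, and whether the counting used strand is not given in the sources used here. All of Ly9 lies within the Cd244a gene on the opposite strand, and Cd244a was at 0.0579 to 0.294 FPKM. The non-coding genes Gm37065 and Gm37787 overlap Slamf6 and Slamf7 on the opposite strand, and Gm37010 overlaps Cd48 on its own strand. They reached at most 2, 1.03 and 0.563 FPKM in any library. Sh2d1a shares 1465 bp with Tenm1 on the opposite strand, a gene at 0 to 0.0151 FPKM.

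**Figure D4:**
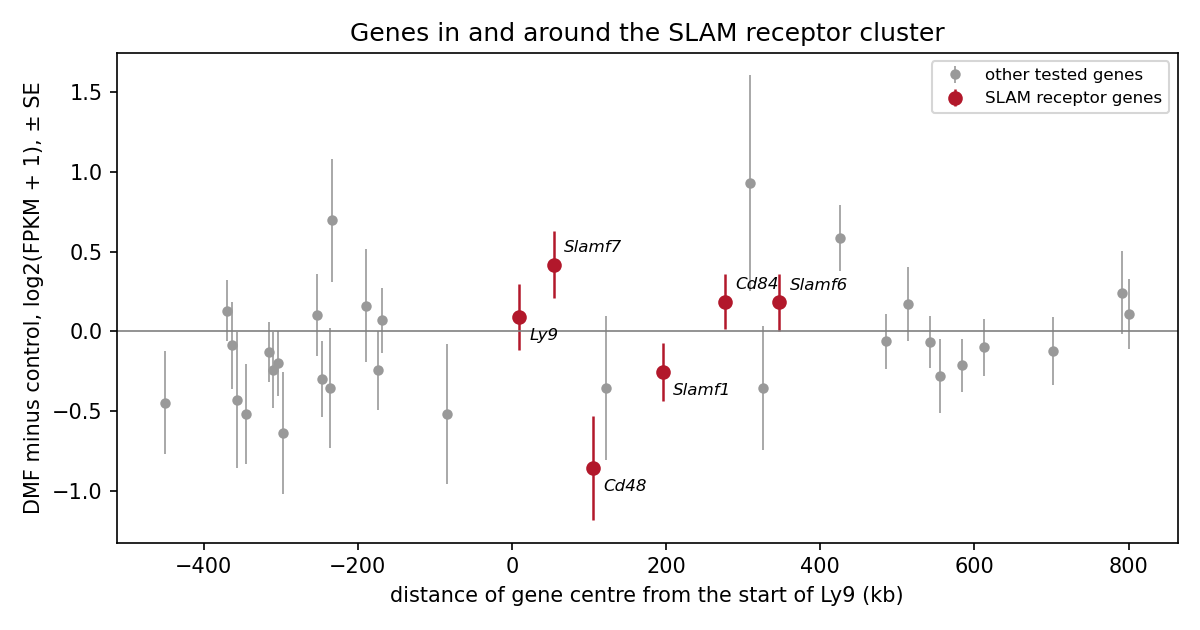
DMF minus control on the log2(FPKM + 1) scale (points, with bars of 1 SE) for the tested genes in the receptor cluster and its flanks, against the distance of the gene's centre from the start of Ly9 in kb. The red receptor genes lie on both sides of 0, from Cd48 at -0.86 to Slamf7 at 0.42.

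Since the series title names Nrf2, the 250 bases before the RefSeq start of each gene were searched for the core of the antioxidant response element to which Nrf2 binds, TGACNNNGC. Also searched, on both strands, were the AP-1 motif TGANTCA, bound by Fos and Jun proteins after T cell activation, and the STAT motif TTCNNNGAA. The RefSeq promoter table (GRCm38.p6) holds 5 of the 7 genes, without Ly9 and Sh2d1a. Its starts lie 0 to 53 bases from those of the deposited table in 4 genes. For Slamf7 they lie 4036 bases apart, so that its window falls inside the gene as the table places it. The antioxidant element core was found in 1 of the 5, against 10.2% of 32851 promoters, the AP-1 motif in 2, against 6.75%, and the STAT motif in 0, against 7.02%. The windows with a match are shown so that the letters can be seen beside the values above, with matches in capitals, 5′ to 3′ in the direction of the gene. In Cd48 (chr1:171681742-171681991, plus strand), the receptor gene with the largest difference, the capitals mark the antioxidant element core read on the opposite strand, 225 to 217 bases before the start.
Cd48: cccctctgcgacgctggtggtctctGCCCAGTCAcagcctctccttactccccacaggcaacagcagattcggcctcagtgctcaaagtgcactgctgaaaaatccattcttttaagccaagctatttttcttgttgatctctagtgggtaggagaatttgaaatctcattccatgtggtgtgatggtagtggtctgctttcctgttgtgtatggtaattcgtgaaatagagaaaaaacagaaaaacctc
In Slamf7 (chr1:171649000-171649249, minus strand) and Cd84 (chr1:171839447-171839696, plus strand), the capitals mark the AP-1 motif. It lies 42 to 36 and 229 to 223 bases before the start. Slamf7 and Cd84 lay above both controls, as did Slamf6, whose window held no match. That of Slamf1, which lay below both, held none either.
Slamf7: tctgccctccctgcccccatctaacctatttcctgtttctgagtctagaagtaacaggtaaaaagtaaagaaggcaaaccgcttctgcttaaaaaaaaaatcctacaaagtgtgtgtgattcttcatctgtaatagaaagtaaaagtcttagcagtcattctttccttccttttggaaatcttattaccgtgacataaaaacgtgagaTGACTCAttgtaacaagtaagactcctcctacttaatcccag
Cd84: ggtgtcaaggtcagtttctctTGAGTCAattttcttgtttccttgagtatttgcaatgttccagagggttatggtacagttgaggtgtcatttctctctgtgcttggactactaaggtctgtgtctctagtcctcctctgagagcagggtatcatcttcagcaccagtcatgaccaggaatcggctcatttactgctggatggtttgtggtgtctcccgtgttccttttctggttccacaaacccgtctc
A match describes these letters only, and binding was not measured.

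The pathway lists cover other receptors, other adaptors, kinases and activating partners, phosphatases and inhibitory partners, and genes tied to SLAM and SAP signals. They hold 25 genes, of which 18 were tested. None passed limma at an adjusted p under 0.05, 7 lay above and 8 below both controls, beside 26.4% and 26.8% of all tested genes, and the median difference was 0.05. At an unadjusted p under 0.05 there were 2 higher and 2 lower, beside 3.14% and 6.31%. Without control replicate 2 the median was -0.03, and 3 were past an adjusted p of 0.05 and higher, Ptpn6, Ptpn11 and Egr2, and 1 lower, Cd2, beside 8.28% of all tested genes. Without control replicate 1 there were 7 in each direction, beside 27.6% higher and 33.4% lower of all tested genes. The 9 kinases and activating partners were all tested, with 3 above and 4 below both controls (53.2% of all tested genes did not overlap) and a median of 0.01. Fyn, the kinase that SAP recruits, was at 69.3 and 62.4 FPKM in the controls and at 79.7 and 77 FPKM in the DMF libraries. Lck, the kinase that starts T cell receptor signalling, was at 210 and 289 FPKM in the controls and at 196 and 189 FPKM in the DMF libraries. Prkcq, which encodes protein kinase C theta downstream of SAP and Fyn, was at 26.3 and 25.9 FPKM in the controls and at 21 and 20.6 FPKM in the DMF libraries. Fyn thus lay above both controls, and Lck and Prkcq below both, each with a limma adjusted p of 0.561 to 0.586. Their differences without control replicate 2 were 0.18 for Fyn (0.25 with all libraries), -0.12 for Lck (-0.36) and -0.32 for Prkcq (-0.31).

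Of the 7 phosphatases and inhibitory partners, all tested, 3 lay above and 3 below both controls, again beside 53.2% of all tested genes that did not overlap, with a median of 0.09. Ptpn11, which encodes SHP-2, a phosphatase that can bind SLAM receptor tails, was at 24.9 and 13.5 FPKM in the controls and at 36.2 and 36.6 FPKM in the DMF libraries. The difference was 0.95 ± 0.33 (SE, limma unadjusted p = 0.0396, adjusted p = 0.51), and 0.53 without control replicate 2. Ptpn6, which encodes the related SHP-1, was at 111 and 147 FPKM in the controls and at 139 and 134 FPKM in the DMF libraries, between the controls. Inpp5d, which encodes the lipid phosphatase SHIP-1, was at 8.98 and 6.98 FPKM in the controls and at 10.1 and 9.8 FPKM in the DMF libraries. The differences without control replicate 2 were 0.29 for Ptpn6 and 0.14 for Inpp5d, against 0.09 and 0.30 with all libraries. Dok2, an adaptor that damps Ras signals, was at 30.8 and 50.6 FPKM in the controls and at 19.2 and 21.6 FPKM in the DMF libraries. Its difference was -0.92 ± 0.30 (SE, limma unadjusted p = 0.0309, adjusted p = 0.491), and -0.57 without control replicate 2. With all 4 libraries, transcripts of the 2 SHP phosphatases were thus placed differently, those of SHP-2 above both controls and those of SHP-1 between them. Without control replicate 2 both differences were positive, 0.53 for Ptpn11 and 0.29 for Ptpn6. The gene models have 7492 bp for Ptpn11 and 2802 bp for Ptpn6. The gene length trend was not removed from the values given for the pathway lists, and its part in them was not tested.

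Of the 3 genes tied to SLAM and SAP signals, 1 was tested. Egr2, which T cells switch on after antigen receptor signals, was at 17.3 and 15.7 FPKM in the controls and at 37.4 and 36.1 FPKM in the DMF libraries. Egr2 was thus above the controls by 1.11 ± 0.17 (SE, limma adjusted p = 0.222), and by 1.05 without control replicate 2. Il4, the cytokine whose production by T cells needs SAP in several settings, had 9 and 26 control reads and 3 reads with DMF in either replicate, below the filter. Zbtb16, which encodes PLZF, the factor of SAP-dependent NKT cells, had 0 and 2 reads in the controls and 4 and 0 in the DMF libraries. The list of 4 other SLAM-type receptors also holds Cd2, the partner of CD48, which lies on chromosome 3, outside the receptor cluster. Only Cd2 was tested of that list. Slamf8 and Slamf9, receptors of myeloid cells among others, had 1 to 6 and 4 to 16 reads a library.

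**Figure D5:**
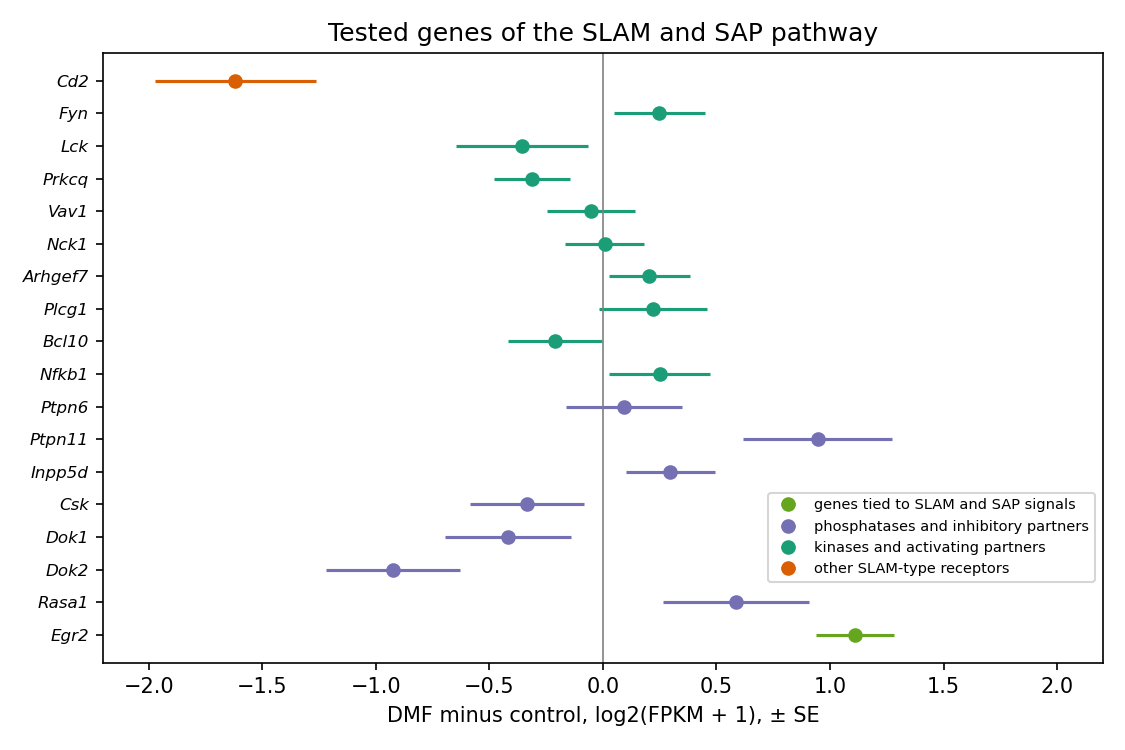
DMF minus control on the log2(FPKM + 1) scale (points, with bars of 1 SE) for the 18 tested genes of the pathway lists, coloured by list. Cd2 at -1.62 and Egr2 at 1.11 lie furthest from 0, and the kinases and activating partners lie between -0.36 and 0.25.

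For each gene, the tested genes most like it over the 4 libraries were taken as those with the smallest Euclidean distance of log2(FPKM + 1) after the gene's mean was subtracted. For Cd48 they were Cd3g, a chain of the T cell receptor complex (distance 0.0285), Dap and Dexi. For Sh2d1a they were Acp5 (0.0392), Fkbp1a and B2m. For Slamf1 they were Cdc42se2 (0.0315), the pseudogene Bnip3l-ps and Gpr83. For Slamf6 they were Reep3 (0.0187), Gm16675 and Rab12, and for Slamf7 Cdc73 (0.0141), Tsc2 and Syncrip. For Cd84 they were Cstf3 (0.0135), Dpp9 and Cox17, and for Ly9 the cell division genes Aurkb (0.0133) and Cdc20 with E2f4. These names describe likeness over 4 libraries only. Cd3g itself was at 55.3 and 99.6 FPKM in the controls and at 40.8 FPKM in both DMF libraries, close to the values of Cd48.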

How the data were processed

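The authors deposited FPKM values of all genes in 1 table that also holds coordinates and gene lengths. The submitters' processing notes list edgeR and the build mm8. The aligner is not given in the sources used here, nor is the counter. Of 54495 gene identifiers found in GENCODE M21 (GRCm38), 98.33% have the same coordinates in the table, so positions are given as GRCm38. FPKM times gene length gave whole multiples of 1 step for 100% of values in each library, within 0.01 reads, which gave reads per gene. The 2 DMF libraries were not copies of each other and were kept as 2 libraries. Their chi-square per degree of freedom was 3.61, against 147 for the controls, over genes with at least 20 reads. This value cannot tell whether they came from separate animals or cultures.

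limma 3.58.1 (lmFit, eBayes with a trend, R 4.3.3) was fitted to log2(FPKM + 1) of the 12166 genes with a mean of at least 1 FPKM, DMF minus control, two-sided, with no covariate, Benjamini-Hochberg adjustment over all tested genes and a threshold of 0.05. All 7 genes passed the filter. The pathway and marker lists and the rule for named genes (the 7 genes, the lists, the genes of the cluster and the 3 nearest genes of each) were chosen with earlier results of these data known. The script was tested on simulated reads. The simulation held no gene length trend and no control that stood apart, so it does not cover these features of the data. The alternatives were a pseudocount of 0.1, no filter, a mean of at least 5 FPKM, trimmed mean scaling, quantile normalization, eBayes without a trend, voom on reads, removal of a gene length trend (loess, span 0.3), a replicate block, and each library left out.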

Additional observations from a re-analysis of the deposited data

How the results depend on the processing

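Counts of calls depended on the libraries used. Where all 4 libraries gave 0 genes past the threshold in limma (1150 at an unadjusted p under 0.05), leaving out 1 library gave 6 to 7420 genes, and 0 to 5 of the 7 genes described here. Removing the gene length trend gave 3 genes, and a replicate block gave 552, with none of the 7 among either. Nothing in the labels ties equal replicate numbers to 1 animal or day. The differences between replicates 1 and 2 of the 2 groups had a correlation of -0.0233 over genes, so the numbers were not taken to pair the libraries. With 1 library left out, the log2 differences ran from -0.36 to -0.15 for Slamf1, 0.0785 to 0.286 for Slamf6, 0.22 to 0.62 for Slamf7, 0.11 to 0.26 for Cd84, -0.0732 to 0.254 for Ly9, -1.26 to -0.46 for Cd48 and -1.36 to -0.60 for Sh2d1a. Ly9 turned to -0.0732 without control replicate 1 and Slamf6 to -0.12 with the gene length trend removed, and the cause was not tested. The other alternatives kept the direction of each of the 7 genes, and with a mean of at least 5 FPKM Sh2d1a was not tested.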
